A study of Mus musculus with 24 samples.

Results

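The genes described here are 9 genes of mature B lymphocytes, Ms4a1, Cd79a, Cd79b, Pax5, Blk, Cr2, Fcer2a, Cd22 and Cxcr5, in adipose tissue of mice with an altered STAT5B protein. They were taken by symbol from the 24421 genes of each library, and all 9 were found in all 24 libraries. The animals were C57BL/6 mice aged 2 months, male or female. They were wild type (WT), STAT5B-Y665F, in which phenylalanine takes the place of a tyrosine in the SH2 domain, or STAT5B-Y665H, in which histidine does. Each of the 6 groups had 4 libraries of total RNA. The labels name no treatment, and whether the alleles were carried on 1 or both chromosomes is not given in the sources used here. The labels describe point mutations carried by the mice and name no transgene or Cre driver. The labels call the tissue adipose without a depot. They do not say that the libraries came from separate animals, so the p-values measure the spread between these libraries.

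B cells recognise antigen through the B cell receptor, a membrane immunoglobulin held together with the signalling chains CD79A and CD79B. Kinases of the Src family, such as BLK, pass the signal on, and co-receptors set its strength: CD21, the product of Cr2, raises it and CD22 lowers it. PAX5 is the transcription factor that keeps a cell in the B lineage, and the chemokine receptor CXCR5 guides B cells into follicles. Adipose tissue holds B cells among its fat cells, macrophages and T cells, both scattered and in small lymphoid clusters.

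The libraries held 21.0 to 41.3 M gene counts, with a median of 34.6 M, where M stands for 1000000. Among females, the ranges were 34.6 to 38.6 M in WT, 27.3 to 33.8 M in Y665F and 32.2 to 38.7 M in Y665H libraries. Y665F and WT females therefore did not overlap in depth, and its part in the members' differences was not tested. The unit of level is counts per 1000000 gene counts of the library (CPM), and a count of 0 allows up to 0.0726 to 0.143 CPM, which covers counting error only. The members were low in abundance, with 5 to 355 counts per gene and library. Skeletal muscle genes and epididymis genes varied widely between libraries of the same group. The 8 muscle genes summed to 85.5 to 946 CPM in WT females, 30.4 to 168 in Y665F females and 21.0 to 1574 in Y665H females. The 8 epididymis genes summed to 1.24 to 12593 CPM in WT males, the highest value being that of WT male 2. Adipocyte genes were high in every group, at 6521 CPM summed over 10 genes in WT male 2 and at least 10477 CPM in every other library. Stat5b itself lay between 80.4 and 122 CPM in all libraries, which does not test the genotype, since a point mutation leaves the gene's counts in place.

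Promoter sequence was available for 5 of the 9 members in the RefSeq table of the mouse build GRCm38.p6, the build that the name mm10 in the submitters' processing notes also denotes. The 4 shown here stand for genes that moved together in the libraries (Cd22, Cd79a and Pax5) and for a gene that moved less (Cr2). Each is the stretch of the 250 bases before the annotated start that lies outside exons, written 5′ to 3′ on the gene's strand, and capitals mark a motif match. Cd22 lies at chr7:30879029-30879176, minus strand, Cd79a at chr7:24897247-24897380, plus strand, Pax5 at chr4:44710695-44710944, minus strand, and Cr2 at chr1:195176720-195176969, minus strand.
Cd22: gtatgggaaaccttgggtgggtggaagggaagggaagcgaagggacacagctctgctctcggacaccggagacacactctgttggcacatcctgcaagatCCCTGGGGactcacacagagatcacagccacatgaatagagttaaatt
Cd79a: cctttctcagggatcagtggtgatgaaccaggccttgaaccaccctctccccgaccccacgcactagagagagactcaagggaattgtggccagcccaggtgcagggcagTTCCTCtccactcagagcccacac
Pax5: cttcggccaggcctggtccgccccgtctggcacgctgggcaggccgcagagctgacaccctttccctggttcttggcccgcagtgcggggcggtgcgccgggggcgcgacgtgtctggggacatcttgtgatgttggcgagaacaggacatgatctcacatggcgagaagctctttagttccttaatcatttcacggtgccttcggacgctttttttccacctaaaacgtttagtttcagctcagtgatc
Cr2: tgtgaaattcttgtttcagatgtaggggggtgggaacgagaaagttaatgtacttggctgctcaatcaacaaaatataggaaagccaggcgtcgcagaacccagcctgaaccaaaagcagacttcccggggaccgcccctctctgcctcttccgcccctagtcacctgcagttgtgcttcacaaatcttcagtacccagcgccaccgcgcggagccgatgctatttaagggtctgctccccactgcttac
Of the 4 motifs searched on both strands, the one of the early B cell factor EBF1, CCCNNGGG, was in the Cd22 window, as CCCTGGGG beginning 48 bases before the start. It was in 11.8% of all 32851 promoter windows of that length. The PU.1 and ETS motif, GAGGAA, was in the Cd79a window on the other strand, as TTCCTC beginning 140 bases before the start, and in 23.25% of all windows. The octamer ATGCAAAT (1.60% of windows) and the STAT motif TTCNNNGAA (7.02% of windows) had no match in the windows of Cd22, Cd79a, Pax5, Cr2 and Fcer2a. These matches describe letters and say nothing of binding.

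Per kilobase of exon, the chains of the receptor were the most abundant members. Averaged over 24 libraries, Cd79b (chr11:106311341-106314762, minus strand) was at 2.03 CPM per kilobase and Cd79a (chr7:24897381-24902197, plus strand) at 1.92. Levels of 0.496 to 0.658 CPM per kilobase were found for Cd22 (chr7:30865402-30880342), Cxcr5 (chr9:44511787-44561877), Blk (chr14:63372836-63417037) and Fcer2a (chr8:3681737-3694175), all on the minus strand. Ms4a1 (chr19:11249675-11266241, minus strand), which encodes CD20, was at 0.245, Cr2 (chr1:195136811-195176716, minus strand) at 0.203, and Pax5 (chr4:44524757-44710487, minus strand) at 0.0981 CPM per kilobase. All are protein-coding genes, and the positions and exon lengths are those of GENCODE M21 on GRCm38. Exons of a gene on the opposite strand cover 9.5% of the exon length of Cd22, 7.18% of Pax5 and 3.30% of Cxcr5. The strand setting of the counting is not given, so some of their counts may belong to the neighbour.

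For 7 of the 9 genes, the Y665F groups of both sexes had the highest mean levels and Y665H males came next. Fcer2a was highest in Y665F males and similar in WT males, Y665H males and Y665F females, at means of 1.56, 1.55 and 1.49 CPM. Cxcr5 had higher means in the 3 male groups than in the 3 female groups, with 3.03, 2.49 and 2.43 CPM in Y665F, Y665H and WT males and 1.93, 1.86 and 1.33 CPM in Y665F, WT and Y665H females. Between neighbours in these orders, library values overlapped for every gene, with the exception of Fcer2a in Y665F males (2.12 to 2.81 CPM) and WT males (1.12 to 2.01 CPM).

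**Figure D1:**
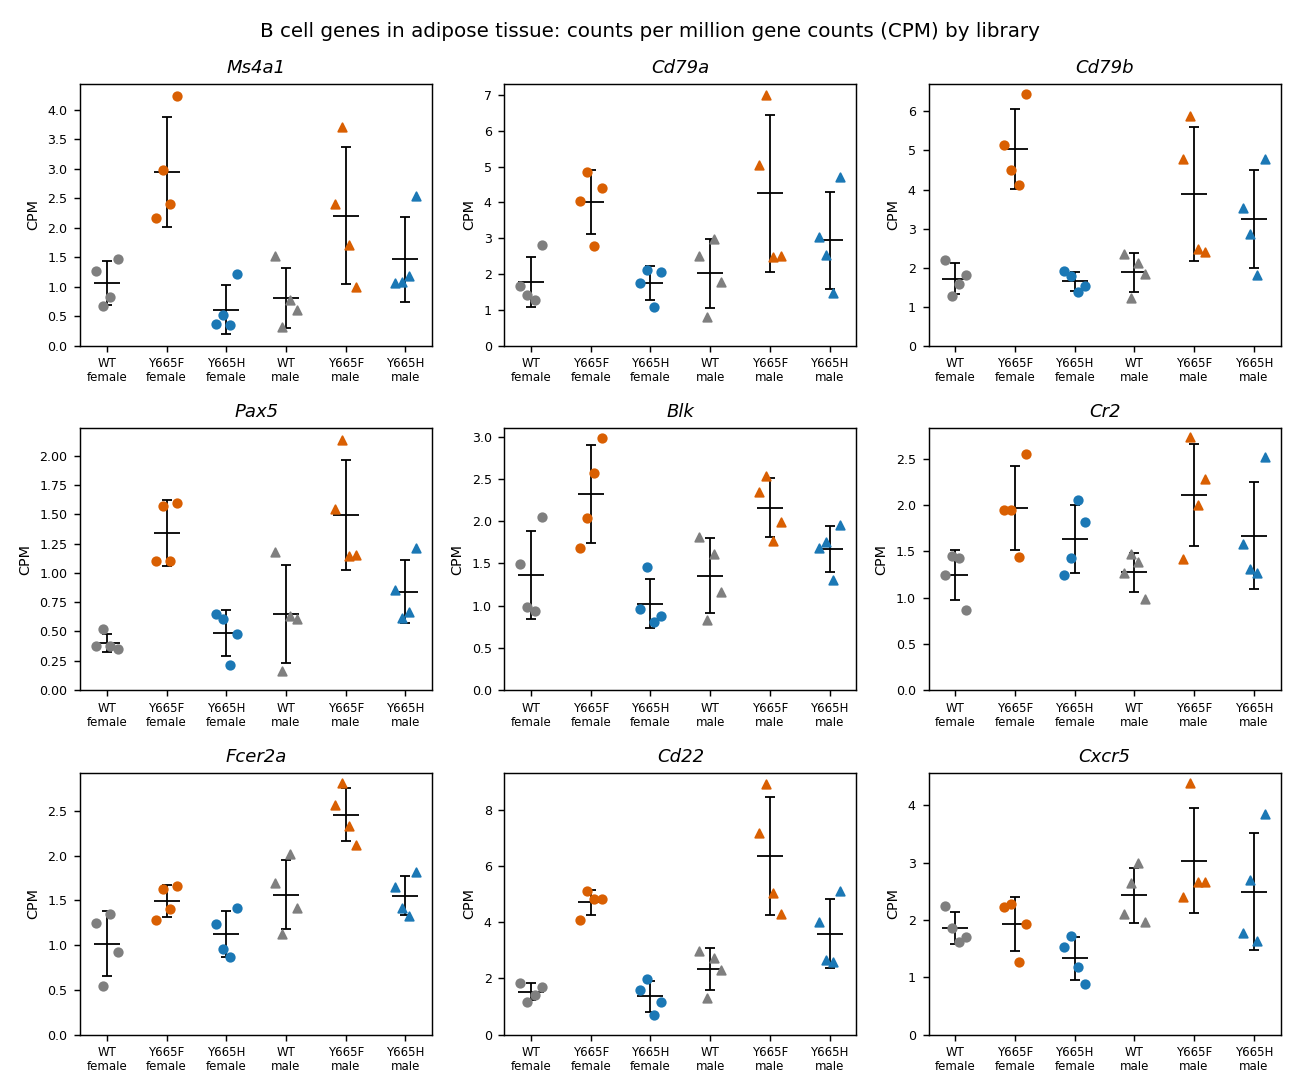
Levels of the 9 B cell genes in every library, in CPM, with circles for females, triangles for males and bars for mean ± SD of 4 libraries. In females, Cd22, Cd79b, Pax5 and Ms4a1 of the Y665F libraries lie above all WT libraries, while Cxcr5 overlaps between the groups.

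In females, Cd22, Cd79b and Pax5 were 2.81-fold, 2.68-fold and 3.00-fold higher in Y665F than in WT tissue. They passed the threshold of an adjusted p under 0.05 in edgeR's quasi-likelihood test over all genes. These are 3 of 9 members, where 2.31% of all tested genes were called higher. Ms4a1 and Cd79a were 2.53-fold and 2.06-fold higher without passing, and Cr2, Fcer2a, Blk and Cxcr5 differed by less. The members' median log2 fold change was 1.04, against 0.02 for all genes, and 8 of 9 were above 0. In tissue RNA, more B cells and more of this RNA per B cell cannot be told apart.

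Cd22 encodes the lectin that dampens receptor signals. It was at 1.84, 1.17, 1.40 and 1.71 CPM in the WT females, and the 4 libraries of Y665F females had 4.07, 5.11, 4.84 and 4.82 CPM. The groups did not overlap, and its log2 fold change was 1.49 (SE 0.18, adjusted p = 0.00978). Cd79b, the beta chain of the receptor's signalling pair, was at 2.20, 1.27, 1.59 and 1.82 CPM in WT and at 5.13, 4.49, 4.12 and 6.45 CPM in Y665F females. Each Y665F library was above each WT library, with a log2 fold change of 1.42 (SE 0.22, adjusted p = 0.0198). Pax5 was at 0.380, 0.519, 0.376 and 0.347 CPM in WT and at 1.10, 1.57, 1.10 and 1.60 CPM in Y665F females. It too was free of overlap and had the largest log2 fold change of the 9, at 1.59 (SE 0.24, adjusted p = 0.0198).

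Ms4a1 was at 1.28, 0.674, 0.833 and 1.47 CPM in WT and at 2.16, 2.99, 2.4 and 4.24 CPM in Y665F females. These groups did not overlap either, but the adjusted p was 0.0572. Non-overlap in this direction was found for 4 of 9 members and for 19.9% of all tested genes. Cd79a, the alpha chain, was at 1.65, 1.43, 1.26 and 2.80 CPM in WT and at 4.03, 4.85, 2.78 and 4.41 CPM in Y665F females (log2 fold change 1.04, SE 0.30, adjusted p = 0.0886). WT female 4 was just above the lowest Y665F library. Adjusted p was 0.212 for Blk (log2 fold change 0.63), 0.205 for Cr2 (0.53), 0.351 for Fcer2a (0.43) and 0.862 for Cxcr5 (-0.07).

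Calls for Cd79b and Pax5 depended on single libraries and Cd22 was called in all 8 fits that left out 1 library. The number of members called was 1 without WT female 4, without Y665F female 1 or without Y665F female 4, and 5 without Y665F female 3. Over all genes these fits called 83, 67, 71 and 747, in that order, against 521 with every library. All 8 muscle genes were lower in Y665F females, with a median log2 fold change of -4.79 and none called (lowest adjusted p = 0.0512). With the muscle level as a covariate no member was called, and none of the 15642 genes tested. The log2 fold changes of Cd22, Cd79b and Pax5 were then 1.81, 1.70 and 1.32 (adjusted p = 0.0828, 0.0849 and 0.127). Over all genes, 361 of 521 calls were higher in Y665F females. With scaling by library totals it was 1025 of 1164, with DESeq2 980 of 2031.

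**Figure D2:**
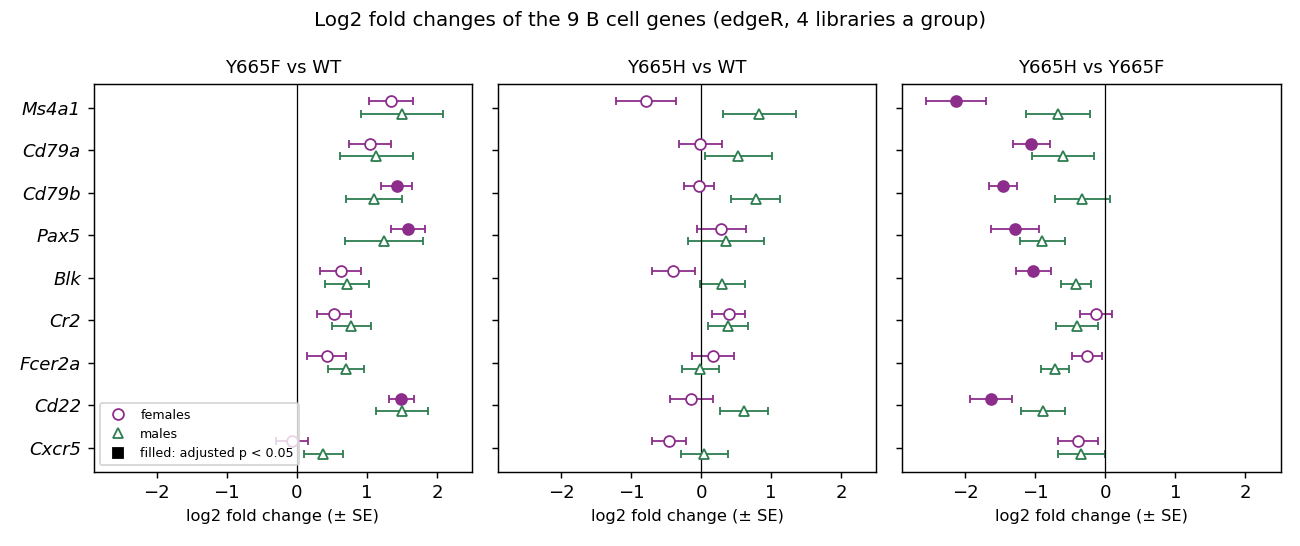
Log2 fold changes (± SE) of the 9 genes from edgeR, 4 libraries a group, with circles for females, triangles for males and filled symbols for an adjusted p under 0.05. Filled symbols appear for 3 genes in Y665F against WT females and for 6 genes in Y665H against Y665F females, and none for males.

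In males the same direction was seen with a wider spread. All 9 genes were above 0 in Y665F against WT, with a median log2 fold change of 1.10 against -0.04 for all genes. None was called by edgeR, where 0% of all genes were called higher, and 5 had an unadjusted p under 0.05. DESeq2 called 1, Cd22 (adjusted p = 0.00629), where it called 613 of 21653 genes higher. A fit of edgeR over all 24 libraries called 2, Cd22 (adjusted p = 0.00919) and Cd79b (adjusted p = 0.0305). That fit called 935 of 17157 genes higher. Cd22 was at 2.99, 1.31, 2.73 and 2.29 CPM in WT males and at 7.19, 8.92, 5.05 and 4.3 CPM in Y665F males. The groups did not overlap, and the log2 fold change of 1.5 (SE 0.37, adjusted p = 0.164) was close to that of the females.

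Cd79b was at 2.36, 1.21, 2.13 and 1.82 CPM in WT and at 4.78, 5.88, 2.48 and 2.41 CPM in Y665F males, so that the lower 2 Y665F libraries were just above the highest WT library. Fcer2a encodes CD23, the low-affinity receptor for immunoglobulin E. It was at 1.70, 1.12, 2.01 and 1.42 CPM in WT and at 2.57, 2.81, 2.34 and 2.12 CPM in Y665F males (log2 fold change 0.70, SE 0.26, adjusted p = 0.257). Cd22, Cd79b and Fcer2a were the 3 of 9 members without overlap, against 5.59% of all genes. WT male 2, the library with the most epididymis RNA, also had the lowest summed members, at 9.88 CPM. Without it the members' median log2 fold change was 0.89 and without Y665F male 2, which had the highest sum at 40.1 CPM, it was 0.75. With the epididymis level as a covariate it was 0.72. The members were above 0 in each of these fits and none was called, as was none of all genes tested. All 7 epididymis genes tested were lower in Y665F than in WT males. Their part in the result was not tested beyond these fits.

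The effect of Y665F was not shown to differ between the sexes. An interaction test on 16 libraries called none of the 9 genes in edgeR, where 0 of 16732 genes were called. No member had an unadjusted p under 0.05 in edgeR. DESeq2 called none of the 9, where it called 1193 of 21900 genes, 507 of them with a higher fold change in males. The differences between the log2 fold changes of males and females ran from -0.34 to 0.45 (adjusted p = 0.488 to 0.998).

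In Y665H against WT no member passed the test in either sex. In Y665H against WT females, no member was called by edgeR or DESeq2 and none had an unadjusted p under 0.05 in edgeR. Of all genes, edgeR called 1.53% higher and 1.80% lower, and DESeq2 called 1760 of 20341, of which 872 were higher. Log2 fold changes ran from -0.79 for Ms4a1 to 0.39 for Cr2, with a median of -0.03. Ms4a1 was at 0.362, 0.521, 0.342 and 1.22 CPM in Y665H females, so that 3 of 4 libraries were below all WT females and Y665H female 4 was within their range (adjusted p = 0.297). The summed level of the 9 genes overlapped, at 8.64 to 12.6 CPM in Y665H and 9.90 to 13.7 CPM in WT females. In Y665H against WT males, none was called by either tool and none had an unadjusted p under 0.05 in edgeR. In that contrast edgeR called 0 of 16406 genes, and DESeq2 called 119 of 21669, of which 23 were higher. There 8 of 9 members were above 0, with a median log2 fold change of 0.39 (adjusted p = 0.402 to 0.986), and Cd79b was the furthest from 0 after Ms4a1, at 0.78 (SE 0.35). The median was 0.71 without WT male 1, 0.24 without Y665H male 4, and 0.15 with 6 of 9 above 0 with the epididymis covariate. The effect of Y665H was not shown to differ between the sexes for any member by edgeR or DESeq2. Of all genes, edgeR called 0.0119% higher, and DESeq2 called 718 of 21909, of which 416 were higher. Only Ms4a1 had an unadjusted p under 0.05 (difference of log2 fold changes 1.61, adjusted p = 0.257).

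The direct comparison of the mutants in females gave the most calls. In Y665H against Y665F females, 6 of 9 genes fell, where 8.59% of all tested genes were called lower. They were Cd79b, Cd22, Ms4a1, Blk, Cd79a and Pax5, and the same 6 had no overlap between the groups, which 21.5% of all genes had in this direction. The members' median log2 fold change was -1.06 against -0.03 for all genes. This comparison shares the Y665F females with the comparison to WT, so the 2 are not independent.

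Ms4a1 showed the largest difference, from 2.16 to 4.24 CPM in Y665F to at most 1.22 CPM in Y665H females (log2 fold change -2.13, SE 0.43, adjusted p = 0.0125). Cd22 was at 1.60, 1.98, 0.715 and 1.16 CPM in Y665H females, and its log2 fold change was -1.63 (SE 0.29, adjusted p = 0.00843). Cd79b was at 1.91, 1.78, 1.37 and 1.53 CPM in Y665H females (log2 fold change -1.46, SE 0.20, adjusted p = 0.0032). All of these values lie within or below the range of WT females, apart from 1 library for Cd22. Blk was at 0.956, 1.45, 0.808 and 0.880 CPM in Y665H and at 1.69, 2.04, 2.58 and 2.99 CPM in Y665F females. This kinase gene had a log2 fold change of -1.03 (SE 0.25, adjusted p = 0.0268). The adjusted p was 0.0282 for Cd79a (log2 fold change -1.06) and 0.0342 for Pax5 (-1.30). Cr2, Fcer2a and Cxcr5 had log2 fold changes of -0.13, -0.26 and -0.39 (adjusted p = 0.368 to 0.717).

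Without Y665F female 4 or without Y665H female 4, 3 of the 6 were called. Over all genes these fits called 1733 and 2110, against 2689 with every library. Ms4a1, Cd79b and Cd22 were called in all 8 fits that left out 1 library. Of the 8 muscle genes 5 were called higher in Y665H females. With the muscle level as a covariate 1670 of 15493 genes were called. Among them was 1 member, Cd79b (log2 fold change -1.14, adjusted p = 0.0294). Cd22 was at -1.07 (adjusted p = 0.0563) and Ms4a1 at -2.36 (adjusted p = 0.0741). Pax5 went from -1.30 to -0.64 and Cd79a from -1.06 to -0.66, and the members' median from -1.06 to -0.66. Over all genes 1358 of 2689 calls were higher in Y665H females, and 799 of 3205 with scaling by library totals.

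In Y665H against Y665F males, all 9 genes were below 0 with a median log2 fold change of -0.60. None was called by edgeR or DESeq2, and 3 had an unadjusted p under 0.05 in edgeR. Of all genes, edgeR called 0.901% lower, and DESeq2 called 1096 of 21122, of which 446 were higher. Fcer2a was the 1 member without overlap, at 1.33 to 1.81 CPM in Y665H males against 2.12 to 2.81 CPM in Y665F males (log2 fold change -0.72, SE 0.20, adjusted p = 0.125), where 6.17% of all genes had none. The median was -0.27 without Y665F male 2 and -0.38 without Y665H male 3. Between WT males and WT females no member was called by edgeR or DESeq2 and none had an unadjusted p under 0.05 in edgeR. Of all genes, edgeR called 7.15% higher and 5.95% lower in males, and DESeq2 called 4549 of 21653, of which 2647 were higher. Since the depot is not given, sex and depot cannot be told apart in comparisons of males with females. The log2 fold changes ran from -0.52 for Ms4a1 to 0.53 for Pax5.

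The 9 genes fell into a tight set and 3 looser members. After seeing the values, Cd22, Pax5, Cd79a, Cd79b, Ms4a1 and Blk were grouped. Over the 24 libraries, the 15 correlations among these 6 (Pearson's r of log2(CPM + 0.5)) ran from 0.80 to 0.93. The 21 correlations that involve Cr2, Fcer2a or Cxcr5 ran from 0.32 to 0.81. The libraries share genotype groups, and Cr2 and Cxcr5 are also expressed by cells other than B cells (follicular dendritic cells and helper T cells). In females, the summed level of the 6 was 6.04 to 10.2 CPM in WT, 17.8 to 24.5 CPM in Y665F and 4.54 to 8.45 CPM in Y665H. Summed, Cr2, Fcer2a and Cxcr5 were at 3.50 to 4.75, 4.12 to 6.15 and 4.00 to 4.12 CPM in the same groups. Since the 6 were chosen on these values, the sums describe that choice, and Cd79a and Blk each overlapped between Y665F and WT females.

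**Figure D3:**
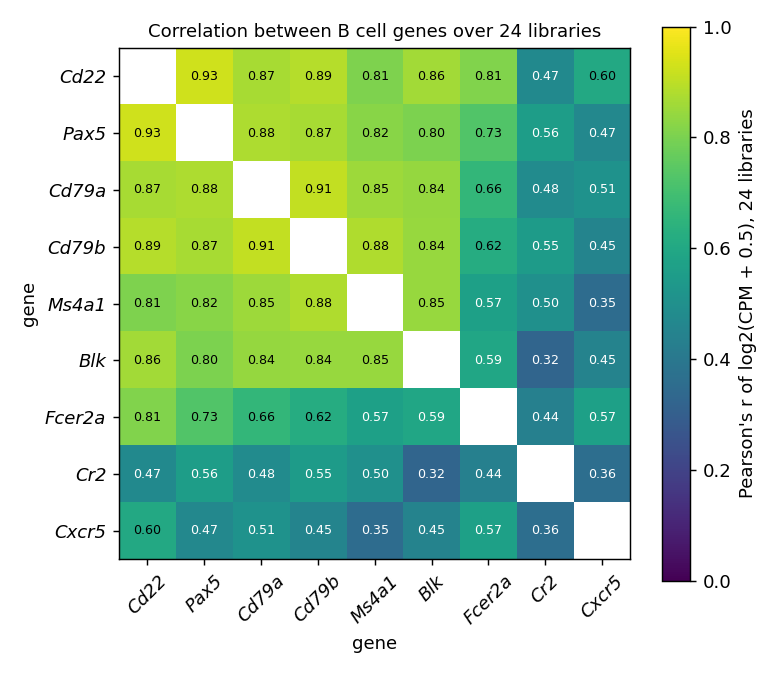
Pearson's r between the 9 genes over 24 libraries, from log2(CPM + 0.5), on a colour scale from 0 to 1. The block of Cd22, Pax5, Cd79a, Cd79b, Ms4a1 and Blk has values of 0.80 to 0.93, and the rows of Cr2 and Cxcr5 hold the lowest values, down to 0.32.

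Among all genes at a mean of at least 1 CPM, those closest to the members' mean level over the 24 libraries were B cell and antigen presentation genes. Spib, a transcription factor of B cells and plasmacytoid dendritic cells, came first with r = 0.944. H2-Aa, Spn, H2-Eb1, H2-Ab1, Ltb, Itga4 and Cd74 were also among the closest, at r = 0.931 to 0.909. H2-Aa, H2-Eb1, H2-Ab1 and Cd74 make up the MHC class II pathway, which macrophages and dendritic cells use as well. In Y665H against WT females Cd74 fell (log2 fold change -0.67, SE 0.13, adjusted p = 0.0341) and H2-Aa fell (-0.46, SE 0.10, adjusted p = 0.0488), while H2-Ab1 and H2-Eb1 had adjusted p of 0.063 and 0.0855. Cd74 was at 166 to 204 CPM in Y665H and 260 to 357 CPM in WT females.

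A gene of all white blood cells was called in the same female comparisons as the B cell genes. Ptprc, which encodes CD45, was at 27.4 to 40.3 CPM in WT, 69.6 to 111 CPM in Y665F and 24.8 to 36.8 CPM in Y665H females. It rose in Y665F against WT females (log2 fold change 1.21, SE 0.17, adjusted p = 0.016) and fell in Y665H against Y665F females (-1.47, SE 0.16, adjusted p = 0.00177). In Y665F against WT males its log2 fold change was 1.14 (SE 0.30, adjusted p = 0.191). Relative to Ptprc, the groups overlapped. The sum of the B cell genes per 100 CPM of Ptprc was 28.6 to 36.1 in WT, 21.2 to 32.4 in Y665F and 29.6 to 45.3 in Y665H females. In males it was 27.6 to 47.9, 25.3 to 42.9 and 30.2 to 42.2 in the same order, and all these ranges overlap.

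**Figure D4:**
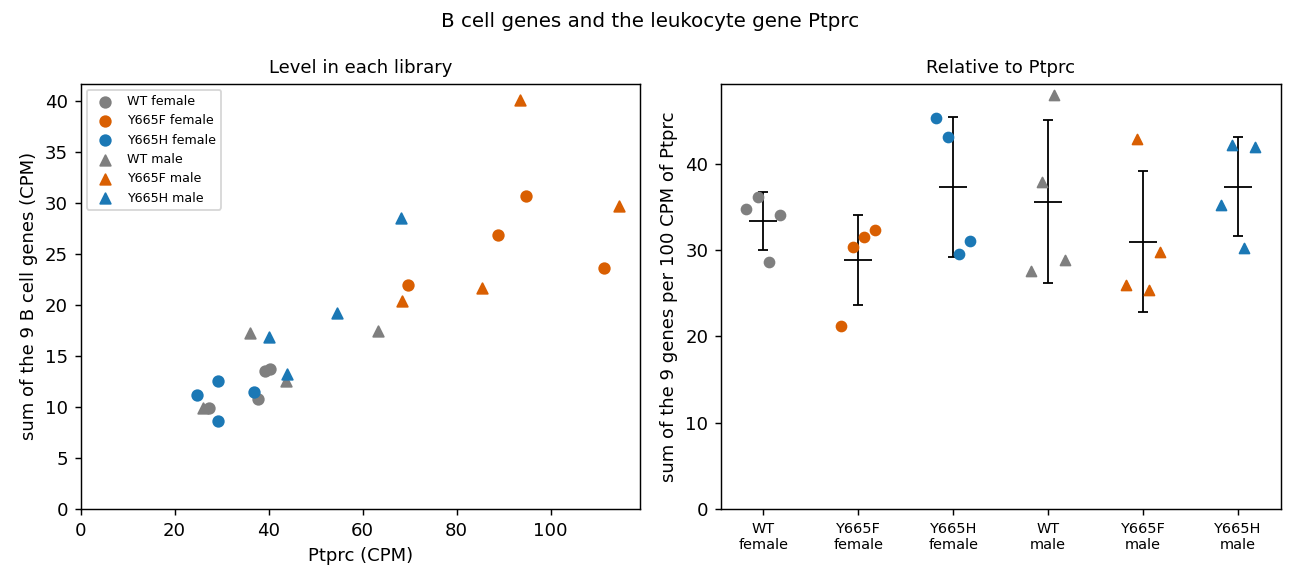
Left, the summed level of the 9 B cell genes against Ptprc in each library, both in CPM. Right, the same sum per 100 CPM of Ptprc, with mean ± SD of 4 libraries, where the 6 groups overlap within 21.2 to 47.9.

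Other genes of the B lineage, from a list of 24, gave calls in the same direction. In Y665F against WT females 20 were tested, 6 rose and none fell, with a median log2 fold change of 0.84. Among them were Tnfrsf13c, the receptor for the survival factor BAFF (1.80, adjusted p = 0.0251), Spib (1.33, adjusted p = 0.0267), and H2-Ob, a modulator of antigen loading (1.03, adjusted p = 0.0251). Ikzf3, a factor of B and T cells, rose most of these (2.00, adjusted p = 0.0152). In Y665H against Y665F females 11 of 20 fell, Spib among them (-1.51, adjusted p = 0.00349), and in males 1 fell, Siglecg (-1.37, adjusted p = 0.0301). None was called in either mutant against WT in males or in Y665H against WT females, and 2 of 20 were higher in WT males than WT females. For this list and those below, 2.31% of all genes were called higher in Y665F against WT females. In Y665H against Y665F, 8.59% were called lower in females and 0.901% in males. In Y665H against WT females 1.80% were called lower. Between WT males and WT females 7.15% were called higher and 5.95% lower in males. The immunoglobulin genes Ighm, Ighd, Igkc, Igha and Ighg1 were not analysed here.

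The 13 genes of receptor signalling, which myeloid cells also use, gave 4 higher in Y665F against WT females, with a median log2 fold change of 0.68. They were Plcg2, Ptpn6, Btk and Vav1, at 0.68 to 0.85. In Y665H against Y665F females 11 of 13 fell, led by the phospholipase gene Plcg2 (-1.28, adjusted p = 0.00105), and 2 fell in males, Plcg2 and Syk. Plcg2 was also the only one of them lower in Y665H than in WT females (-0.59, adjusted p = 0.0236), where 1.80% of all genes were lower. In WT males against WT females 2 of 13 were higher, where 7.15% of all genes were higher. CD40 is the receptor through which helper T cells act on B cells. Its gene Cd40 was at 1.10 to 1.76 CPM in WT and 2.31 to 3.00 CPM in Y665F females (adjusted p = 0.0653).

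Genes listed for later B cell stages gave no call between genotypes, and which cells their RNA came from was not tested. The germinal centre list summed to 70.2 to 174 CPM per library and the plasma cell list to 189 to 363 CPM. The 9 members summed to 8.64 to 40.1 CPM. Of 7 genes of germinal centres and proliferation, 6 were tested, with a median log2 fold change of -0.34 in Y665F against WT females. Of 7 plasma cell genes tested, none was called in a comparison of genotypes, with medians of 0.40 in Y665F against WT females and -0.28 in Y665H against Y665F females. Jchain, which joins secreted antibodies, was at 7.93 to 12.0 CPM in WT and 8.72 to 28.9 CPM in Y665F females (log2 fold change 0.80, adjusted p = 0.167). Of 6 genes linked to B-1 cells, Spn, Cd5 and Cd300lf rose and Bhlhe41 fell in Y665F against WT females, and each had the opposite call in Y665H against Y665F females. T cells and myeloid cells also express Spn, Cd5 and Cd300lf, whereas Bhlhe41 is a factor of B-1 cells and of other tissue cells.

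Of 10 ligands that attract, maintain or help B cells, 7 were tested in Y665F against WT females and 2 rose, both made by lymphocytes. Cd40lg was at 0.0543 to 0.116 CPM in WT and 0.325 to 0.806 CPM in Y665F females (2.57, adjusted p = 0.0205). Its WT values lie around the limit for a count of 0, 0.0778 to 0.0867 CPM in WT females. Fold changes from so low a level are uncertain in size. Ltb had a log2 fold change of 1.79 (adjusted p = 0.0237). Both Cd40lg and Ltb fell in Y665H against Y665F females (-4.34 and -1.34). The other 5 were not called. Cxcl13, the ligand of CXCR5, had a log2 fold change of 0.15 (adjusted p = 0.752) in Y665F against WT females, and Tnfsf13b, which encodes BAFF, one of 0.04 (adjusted p = 0.838). Tnfsf13b was lower in WT males, at 1.60 to 3.11 CPM against 5.32 to 6.84 CPM in WT females (-1.50, adjusted p = 0.0118). Cxcl12 was the other ligand lower in WT males. The depot is not given, so sex and depot cannot be told apart here.

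Other white cell markers moved in the same comparisons. Of 14 T cell genes, 10 rose in Y665F against WT females (median log2 fold change 1.85, against 1.04 for the B cell members), with Cd3g at 1.91 (adjusted p = 0.00978), and 4 fell in Y665H against Y665F females. Their sum was 13.2 to 17.1 CPM in WT, 41.3 to 54.2 CPM in Y665F and 12.9 to 49.7 CPM in Y665H females, where the highest value is Y665H female 4 alone and the other libraries reach 16.5 CPM. Of 8 natural killer and cytotoxic genes 7 were tested. Of these 2 rose in Y665F and 4 fell in Y665H against WT females, and all 7 fell in Y665H against Y665F females. Of 10 macrophage genes none was called in Y665F against WT females (median 0.46) and 6 fell in Y665H against Y665F females. Of 6 dendritic cell genes 1 rose and 3 fell in these 2 comparisons. In males 3 cytotoxic genes fell in Y665H against Y665F. No gene of these lists was called in either mutant against WT males, although in Y665F against WT males the median log2 fold change was 1.75 for the T cell genes (12 of 14 above 0) and 1.61 for the cytotoxic genes (7 of 8 above 0). WT male 2 stood apart there, with T cell genes summing to 188 CPM against 24.2 to 45.2 CPM in the other WT males, and cytotoxic genes to 121 CPM against 4.98 to 16.0 CPM.

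Of 9 genes of lymph node stroma and high endothelium, 6 were high enough to test in Y665F against WT females. None was called, 4 were above 0 and the median log2 fold change was 0.25. In Y665H against Y665F females 1 was called higher and 1 lower, where 1358 and 1331 of 15493 genes were. In Y665H against WT females 1 was called higher, where 1.53% of all genes were. Glycam1, a product of high endothelial venules, was at no more than 0.297 CPM. Ccl21a had no count in any library, and it is uncertain, since reads of near-identical gene copies may be dropped in counting. The list's sum (150 to 174 CPM in Y665F and 155 to 210 CPM in WT females) came mostly from Enpp2, which fat tissue also expresses and which was chosen after its values were seen (109 to 135 CPM and 120 to 180 CPM). Of 10 adipocyte genes, all had log2 fold changes below 0 in Y665F against WT females (median -0.38) and none was called. In Y665H against Y665F females 2 of the 10 were called higher. In Y665H against WT females 1 was called higher and 1 lower, where 1.53% of all genes were higher and 1.80% lower. Epithelial genes summed to 101 to 1459 CPM in Y665F and 59.4 to 177 CPM in WT females, with none of 8 called. Epididymis genes were at no more than 2.16 CPM summed in females, and of 5 erythroid genes only 1 was high enough to test and was not called. The part of the epithelial and adipocyte levels in the members' differences was not tested.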

How the data were processed

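Total RNA-seq of mouse adipose tissue was analysed in 24 libraries of 6 groups, assigned by title. The authors deposited raw read counts for 24421 gene symbols per library. A further 5 entries that name no gene held 24.8 to 39.7% of a library's counts and were left out. That share was 32.5 to 35.9% in Y665F, 27.9 to 30.3% in WT and 24.8 to 29.9% in Y665H females. In males the ranges of the groups overlapped. The part of this share in the members' differences was not tested. Per the labels' protocols, ribosomal RNA was removed and stranded libraries were sequenced in pairs. The ribosomal RNA precursor gene Rn45s still held 3.27 to 15.0% of a library's gene counts, which are the denominator of CPM. In females its share was 5.56 to 8.40% in WT, 4.37 to 6.54% in Y665F and 3.27 to 5.18% in Y665H. WT and Y665H females did not overlap in it, and its part in the levels was not tested. The submitters' processing notes name FastQC 0.11.9, Trimmomatic 0.36, STAR, SAMtools 1.9, Picard 2.9.2, HTSeq 0.9.1 and mm10. Annotation and strand setting are not given in the sources used here.

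Counts were tested with edgeR 4.0.16 (limma 3.58.1, R 4.3.3): quasi-likelihood F test, TMM scaling, filterByExpr, and Benjamini-Hochberg adjustment over all tested genes, called under 0.05. Each contrast used its 8 libraries and each sex interaction 16. CPM are plain counts per 1000000 gene counts, and non-overlap was judged on them. Alternatives were RLE and library total scaling, no filter, DESeq2 1.42.0, a fit over 24 libraries, a replicate block, leaving out each library and, chosen after seeing the data, muscle or epididymis level as covariate. The scripts were tested on simulated data. Within groups the chi-square per degree of freedom of 36 library pairs was at least 17.3, so none counted as a duplicate.

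The members, the 17 gene lists and the tests were chosen with earlier results of these data known. All members were named. From other lists the text names at most 4 called genes per list and contrast, those of smallest p, together with Ptprc, Jchain, Cd3e, Cd3g, Cxcl13, Tnfsf13b, Tnfrsf13c, Cd40, Cd74, Glycam1, Ccl21a, Ccr7 and Stat5b where useful, and genes among the 10 most like the members. Values of a few listed genes are left out of the text.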

Additional observations from a re-analysis of the deposited data

Results flagged for a closer look

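Among 60 sets of 4 libraries (9 genes and their sum in 6 groups), 2 held a library far from the others by Dixon's criterion on the gap over the range, and chance gives about 1 in 20. Ms4a1 was at 2.54 CPM in Y665H male 4, where the next library of the group was at 1.18 CPM (gap over range 0.916). Cxcr5 was at 4.40 CPM in Y665F male 2, where the next was at 2.67 CPM (gap over range 0.868). Both libraries had the highest summed B cell genes of their group.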

How the results depend on the processing

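In Y665F against WT females, 3 members were called, and 5 with library totals, 5 with DESeq2, 0 with the muscle covariate, and 1 to 5 when a library was left out. Over all genes these fits called 521, 1164, 2031, 0 and 67 to 747, in that order. In males the count of 0 members became 1 with DESeq2 and 2 with the fit over all 24 libraries. Over all genes these settings called 613 and 935 higher in Y665F males. In Y665H against Y665F females, 6 members were called, 1 with the muscle covariate and 3 to 6 when a library was left out. Calls over all genes were 2689, 1670 and 1554 to 2839 in these fits. The cause was not tested. In no contrast did all 4 pairs of same-numbered libraries deviate together (correlations of -0.23 to 0.43 in Y665F against WT females, -0.27 to 0.36 in Y665H against Y665F females and, the widest, -0.39 to 0.74 in Y665H against Y665F males), so the numbers were not taken as pairs. With the replicate block, 3 members were called in Y665F against WT females and 4 in Y665H against Y665F females, and 0 elsewhere. Over all genes the block gave 676 and 1583 calls in these comparisons. Under library totals, the median log2 fold change of all genes moved from 0.02 to 0.15 and from -0.03 to -0.18.

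No called value changed sign. In Y665F against WT females, Cxcr5 (-0.07) was 0.054 with library totals and -0.18 to 0.10 when a library was left out. In Y665H against WT females, Cd79a (-0.01) was 0.011 with the block, 0.0058 with the muscle covariate and -0.14 to 0.29 when a library was left out. The same range was -0.15 to 0.10 for Cd79b, -0.033 to 0.33 for Fcer2a and -0.36 to 0.079 for Cd22. In Y665H against WT males, the epididymis covariate gave -0.30 for Pax5 and -0.072 for Blk. Fcer2a (-0.01) was 0.017 without a filter, 0.0032 with DESeq2, 0.0064 with the fit over 24 libraries, 0.023 with the block and -0.13 to 0.15 when a library was left out. Cxcr5 (0.05) was -0.020 with the block and -0.20 to 0.21 when a library was left out. In Y665H against Y665F females, Cr2 was at -0.27 to 0.020 when a library was left out and Cxcr5 at 0.012 with the muscle covariate. Depth limits Pax5 most, with 5 counts in its lowest library.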
